A study of Homo sapiens with 4 samples.

Results

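RNA polymerase II (RNAPII) transcribes protein-coding genes, and in chromatin immunoprecipitation (ChIP-seq) it piles up just downstream of promoters, along transcribed genes, past their ends and at many enhancers. TAF3 is a subunit of TFIID, the factor that nucleates the preinitiation complex, and its PHD finger binds trimethylated lysine 4 of histone H3 (H3K4me3), the mark of active promoters. The regions described here are RNAPII peaks that lie beside a TAF3 promoter peak and carry neither TAF3 nor a strong H3K4me3 peak themselves. They were chosen by measured peak positions: filtered RNAPII peaks under 5000 bp long that share no base with any TAF3 peak of the full list or any filtered H3K4me3 peak, and whose edge lies less than 10 kb from the edge of the nearest filtered TAF3 peak. Of 25013 filtered RNAPII peaks, 3158 met this rule (12.6%).

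The series holds 4 libraries from HCT116, an established human colorectal carcinoma line, at passages 15 to 18. The labels name no treatment other than fixation, and the libraries are TAF3 ChIP, H3K4me3 ChIP, RNAPII ChIP and the input DNA that served as background for all 3 antibodies. Each antibody is represented by 1 library, so no value below has a replicate error and no p-value is given. Antibodies were an antiserum to TAF3 residues 290 to 389, an H3K4me3 antibody, and N-20, which is directed at the amino-terminal part of the largest RNAPII subunit. Chromatin was crosslinked with formaldehyde (1%, 10 min) before sonication.

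After duplicate removal the libraries held 12560129 to 19185386 tags, and the RNAPII library held 16841238. The filtered RNAPII list is the authors' selection by fold enrichment (above 5) and false discovery rate (FDR, below 5%), which 40.7% of the 61456 peaks of the full RNAPII list passed. Fold enrichment is the authors' value for each peak, the summit's tags over what input leads one to expect there, and tags are whole-number counts not scaled to depth. Intervals are 95% intervals that cover the counting of peaks only, and neighbouring peaks can belong to 1 domain, so peaks are less independent than these intervals assume.

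The steps of the rule removed peaks in unequal numbers. Of the 25013 filtered RNAPII peaks, 23398 were under 5000 bp. Of these, 8846 shared no base with a TAF3 peak of the full list, and 8337 also shared none with a filtered H3K4me3 peak. Within those 8337 RNAPII-only peaks, 3158 lay under 10 kb from TAF3 (37.9%, Wilson interval 36.8 to 38.9%), 3520 lay 10 to 50 kb out and 1659 lay over 50 kb out. The last 2 groups, made by the same rule apart from distance, serve for comparison.

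The RNAPII-only peaks beside TAF3 were modest in strength. Their median RNAPII fold enrichment was 15.3, with quartiles of 11.4 and 20.8 and a range of 5.22 to 123. They held a median of 113 tags, with a range of 31 to 1496, over a median length of 1820 bp. Fold enrichment above 20 was found at 898 of the 3158 (28.4%, interval 26.9 to 30.0%), against 72.6% of all filtered RNAPII peaks, a set that includes the promoters. Above 50-fold there were 52 of them (1.65%). A score of 3100 or more, the top of the authors' significance scale apart from a few slightly higher values, was reached by 67 (2.12%), compared with 33.3% of all filtered RNAPII peaks. Summits sat centrally, at a median of 49.6% of the peak length, and 71.2% lay nearer to the middle of their peak than to either end.

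The RNAPII peaks over the neighbouring TAF3 promoters were much stronger. A filtered H3K4me3 peak overlapped the nearest TAF3 peak of 3092 of the 3158 members. Nearly all TAF3 peaks carried this promoter mark, with or without members beside them. It was missing at 51 of the 2187 TAF3 peaks nearest to a member and at 187 of the 9578 others. The 2159 RNAPII peaks over the TAF3 peaks beside members had a median of 110.5-fold enrichment, 559 tags and 2468 bp. Setting each member against the strongest RNAPII peak over its own TAF3 peak, which existed for 3150 of the 3158, the median ratio of fold enrichment was 0.134, with quartiles of 0.0929 and 0.206. By tags per kb the median ratio was 0.310. By fold enrichment, only 13 members exceeded the RNAPII peak over the TAF3 peak beside them. A ratio below 1 was favoured by the choice of members, since TAF3 peaks in this series sit on strong RNAPII peaks and members had to avoid them.

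**Figure D1:**
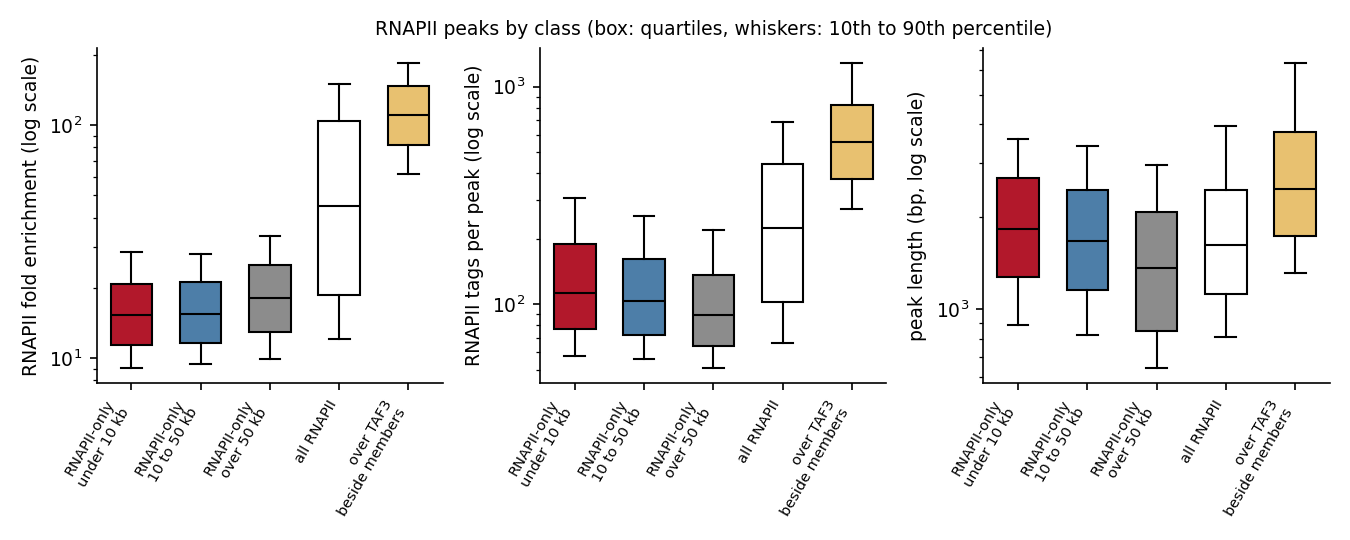
RNAPII fold enrichment, tags per peak and peak length, each on a log axis, for RNAPII-only peaks under 10 kb, 10 to 50 kb and over 50 kb from TAF3, all filtered RNAPII peaks, and the RNAPII peaks over the TAF3 peaks beside members. Boxes give the median and quartiles over peaks and whiskers the 10th and 90th percentiles; the median fold enrichments are 15.3, 15.4, 18.0, 44.8 and 110.5 from left to right.

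The strongest member was chr6:145248781-145253424 (hg19, counted from 1), with 123-fold RNAPII enrichment and 906 tags over 4644 bp. It lay 1849 bp from a TAF3 peak of 23.3-fold whose own RNAPII peak reached 48.1-fold, so here the flanking peak was the higher of the pair. Next came chr19:2273323-2274777, at 120-fold with 376 tags, which lay 1535 bp from a TAF3 peak of 186-fold. The third was chr15:45018555-45019960, at 116-fold with 254 tags, 790 bp from a TAF3 peak of 34.0-fold that had no RNAPII peak in the filtered list. The region chr1:153617227-153621426 had 104-fold enrichment and lay 9319 bp from its TAF3 peak. The region chr7:2913428-2914389 was short, at 962 bp, yet held 366 tags at 94.2-fold.

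The remaining members among the 10 strongest ran from 92.8-fold down to 74.8-fold. They were chr16:69460524-69464678 at 92.8-fold, chr12:125393133-125396491 at 83.5-fold, chr17:39834446-39835571 at 81.9-fold, chr14:69250900-69254850 at 81.6-fold and chr5:72801477-72803661 at 74.8-fold. Their gaps to TAF3 ran from 630 bp on chromosome 16 to 8511 bp on chromosome 17, and over all 10 the largest was 9495 bp, on chromosome 7. The chromosome 14 region held the most tags of any member, 1496, beside a TAF3 peak of 155-fold and a promoter RNAPII peak of 277-fold. The others with most tags were chr2:232316026-232319647 with 1035, chr10:74086425-74090535 with 951, the chromosome 6 region named first with 906, and chr17:79522100-79526847 with 896. The last of these reached only 18.3-fold over 4748 bp, while the chromosome 6 region reached 123-fold over a similar length, 4644 bp. The reason for this difference was not tested.

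Members close to the limits of the rule had values within the range of the rest. The shortest gaps to TAF3 were 46 bp at chr6:33128315-33129118 (30.7-fold), 58 bp at chr1:954564-955367 (40.7-fold) and 76 bp at chr4:169489305-169489938 (21.4-fold). Just inside 10 kb lay chr6:36109400-36110731 at 9995 bp (11.1-fold), chr3:15688234-15688989 at 9994 bp (18.3-fold) and chr17:66042783-66045608 at 9992 bp (30.6-fold). Just outside lay chr11:67019012-67021028 at 10012 bp (8.93-fold), chrX:69642469-69643456 at 10015 bp (16.0-fold) and chr19:12859072-12861212 at 10016 bp (14.03-fold). The longest members were chr11:66432034-66437028 at 4995 bp (20.2-fold), chr8:103829085-103834074 at 4990 bp (12.5-fold) and chr14:104001229-104006215 at 4987 bp (24.7-fold). The shortest peaks left out for length were chr1:43835354-43840363 at 5010 bp (17.6-fold), chr11:69529869-69534881 at 5013 bp (14.1-fold) and chr7:72980083-72985112 at 5030 bp (16.2-fold).

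The density of RNAPII-only peaks was higher near TAF3 than farther out. The gap from a member to its TAF3 peak had a median of 4444 bp, with quartiles of 2272 and 6932 bp, and 1778 members (56.3%) lay under 5 kb. To allow for the amount of sequence at each distance, counts were divided by the bases at that distance that were free of TAF3 peaks, H3K4me3 peaks and those RNAPII peaks that the rule bars. By this measure there were 22.5 peaks per Mb under 1 kb from TAF3, 21.5 between 1 and 2 kb, 17.3 between 4 and 5 kb, 14.6 between 6 and 7 kb, 15.3 between 7 and 8 kb, 12.6 between 8 and 9 kb and 13.3 between 9 and 10 kb. The fall was thus not steady from bin to bin. Farther out the density was 9.94 per Mb between 10 and 20 kb and 4.06 per Mb between 40 and 50 kb. Taken as classes, the members had 16.7 peaks per Mb, compared with 6.65 for those 10 to 50 kb out and 0.760 for those over 50 kb out, where the sequence counted also includes stretches in which no tag could be placed. The first bin held 249 peaks in 11.1 Mb and the second 441 in 20.5 Mb, so the lower count next to TAF3 went with less open sequence there.

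**Figure D2:**
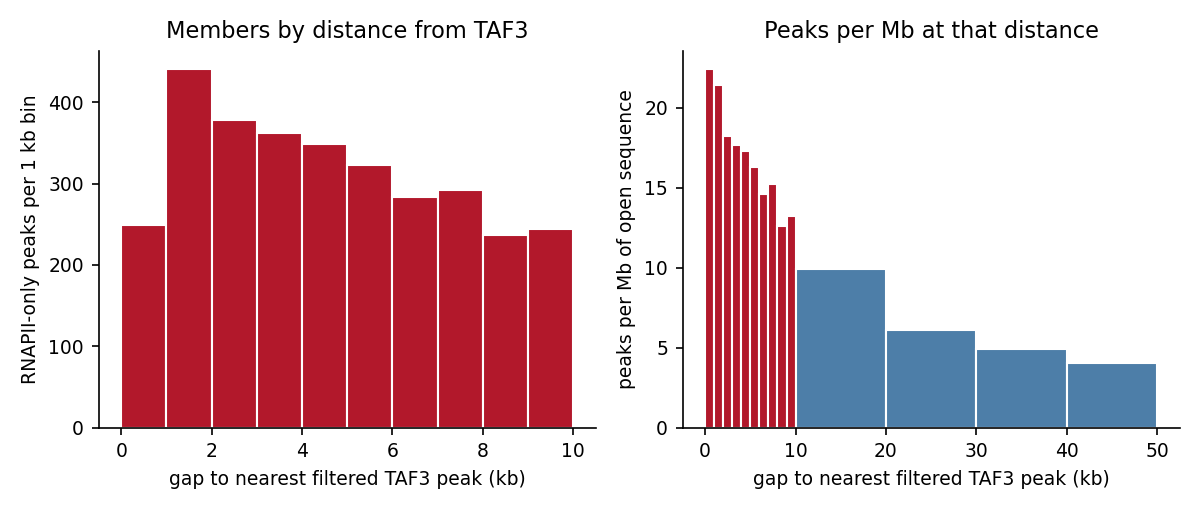
Left, the number of RNAPII-only peaks in each 1 kb bin of gap to the nearest filtered TAF3 peak; right, the same peaks per Mb of open sequence at each distance out to 50 kb, with members in red and peaks 10 to 50 kb out in blue. The density is 22.5 per Mb in the first bin and 4.06 per Mb between 40 and 50 kb, with small rises at 7 to 8 kb and 9 to 10 kb.

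The strength of a member did not follow its distance from TAF3. Median fold enrichment stayed between 14.8 and 16.9 in each 1 kb bin. The rank correlation across the 3158 members was -0.0087 between fold enrichment and gap and 0.018 between length and gap. As a class, members had about the same fold enrichment as RNAPII-only peaks 10 to 50 kb out, with medians of 15.3 (interval 15.0 to 15.6) and 15.4 (15.2 to 15.8). The share above 20-fold differed by -0.26 percentage points between them (members minus 10 to 50 kb, Newcombe interval -2.42 to 1.92). Peaks over 50 kb out were stronger by this measure, with a median of 18.0-fold (17.4 to 18.7), and the share above 20-fold was 13.9 points lower in members (difference -13.9, interval -16.7 to -11.0). Fold enrichment above 50 was found at 1.65% of members, 0.994% of peaks 10 to 50 kb out (difference 0.652 points, interval 0.105 to 1.23) and 1.93% of those over 50 kb out (difference -0.28, -1.16 to 0.472). A score of 3100 or more, which grows with tags as well as fold enrichment, was found at 2.12% of members, 1.14% of peaks 10 to 50 kb out (difference 0.985 points, interval 0.380 to 1.62) and 0.844% of those over 50 kb out (difference 1.28 points, 0.555 to 1.94).

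Tags and length gave another order. The median length was 1820 bp (interval 1771 to 1867) in members, 1670 bp (1627 to 1709) between 10 and 50 kb and 1361 bp (1296 to 1417) over 50 kb. The median number of tags was 113, 103 and 89 in the same classes. Peaks under 1000 bp made up 13.6% of members and 33.2% of the peaks over 50 kb out, and such short peaks had the higher fold enrichment in every class (20.2-fold in members and 22.6-fold over 50 kb out). At 1000 to 2000 bp, the band with most peaks of each class, the medians were 14.2-fold in members, 14.7-fold between 10 and 50 kb and 15.8-fold over 50 kb. From 2000 bp upwards members had the higher median, 14.1-fold against 13.0-fold over 50 kb at 2000 to 3000 bp and 17.2-fold against 15.0-fold at 4000 to 5000 bp. The order of members and distant peaks in fold enrichment thus differed between lengths.

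The rule bars filtered H3K4me3 peaks but not those below the authors' filter. An H3K4me3 peak of the full list overlapped 110 of the 3158 members (3.48%, interval 2.90 to 4.18%), against 60.3% of all filtered RNAPII peaks. Nothing is read from that contrast, since the rule removed every peak that touches a filtered H3K4me3 peak and the 60.3% counts those too. The H3K4me3 peaks over members were weak, with a median of 10.6-fold and 27 tags and a range of 4.71- to 31.4-fold. The 110 members had a median RNAPII enrichment of 22.1-fold, compared with 15.2-fold for the others. The share was 4.77% of RNAPII-only peaks 10 to 50 kb out and 9.77% of those over 50 kb out. The difference, members minus the 10 to 50 kb class, was -1.29 points (interval -2.24 to -0.33), and members minus the class over 50 kb out it was -6.28 points (-7.91 to -4.77).

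Weak H3K4me3 was commonest in the members nearest to TAF3, at 6.02% of the 249 under 1 kb, and was 2.87% of the 244 between 9 and 10 kb. The share was 3.74% between 4 and 5 kb and lowest, 2.40%, between 7 and 8 kb. It did not fall steadily, and few peaks lie behind each of these shares. Beyond 10 kb weak H3K4me3 was more frequent again with distance, at 4.17% between 10 and 20 kb and 7.11% between 40 and 50 kb. The strongest members with such a mark were the chromosome 19 region named above, with H3K4me3 of 20.95-fold at an FDR of 5.66%, and the chromosome 16 region, with H3K4me3 of 10.1-fold at an FDR of 52.1%. The third was chr2:131094684-131095565, with 69.0-fold RNAPII and 10.1-fold H3K4me3 at an FDR of 44.9%. TAF3 peaks outside the filter touched no member by the rule, but one lay closer than the filtered TAF3 peak for 335 members (10.6%), at a median of 9.69-fold.

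A minority of TAF3 peaks had such a flanking peak. Of 11765 filtered TAF3 peaks, 2187 were the nearest TAF3 peak of at least 1 member (18.6%, interval 17.9 to 19.3%), which is what having a member means below. Counting also TAF3 peaks that are not the nearest, 2608 had a member under 10 kb away (22.2%, 21.4 to 22.9%). Of the 2187, a single member was found at 1508, 2 at 466, 3 at 153, 4 at 46, 5 at 10, 6 at 3 and 7 at 1. The 679 TAF3 peaks with several members held 52.2% of all members, and at 207 of the 679 (30.5%) members lay on both sides. Members lying between 2 TAF3 peaks, each under 10 kb away, numbered 454 (14.4%). Their median fold enrichment was 15.3, the same as that of the other members to the digits given. Their median number of tags was 123, against 112 in the other members.

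TAF3 peaks with a member had longer RNAPII peaks, with more tags, than those without. The median length of that RNAPII peak was 2484 bp at TAF3 peaks with a member and 1678 bp at those without. Ranked by RNAPII peak length, the 5 quintiles from short to long had a member at 7.86%, 10.5%, 13.9%, 23.1% and 37.8% of TAF3 peaks. The longest minus the shortest quintile was 29.9 points (interval 27.6 to 32.1). Per Mb of open sequence within 10 kb, the lowest quintile had 5.78 members and the highest 51.6. By RNAPII tags the difference was 26.9 points (interval 24.7 to 29.2), with 6.06 members per Mb in the lowest quintile and 43.4 in the highest. The intervals for length and tags overlap, and longer peaks hold more tags.

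The fold enrichment of the promoter signals went with members less than RNAPII length or tags did. The gap between the highest and the lowest quintile was 3.67 points by RNAPII fold enrichment (interval 1.49 to 5.85) and 5.35 points by TAF3 fold enrichment (3.09 to 7.62). By H3K4me3 fold enrichment it had the other sign, at -2.82 points (-4.98 to -0.66), with 18.2% in the lowest quintile, 20.1% in the middle one and 15.4% in the highest. Longer TAF3 and H3K4me3 peaks had members more often, by 15.4 points (13.1 to 17.7) and 10.4 points (8.06 to 12.7). Median H3K4me3 enrichment was 141-fold at TAF3 peaks with a member and 143-fold at those without, and median TAF3 enrichment was 38.0-fold and 35.8-fold.

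**Figure D3:**
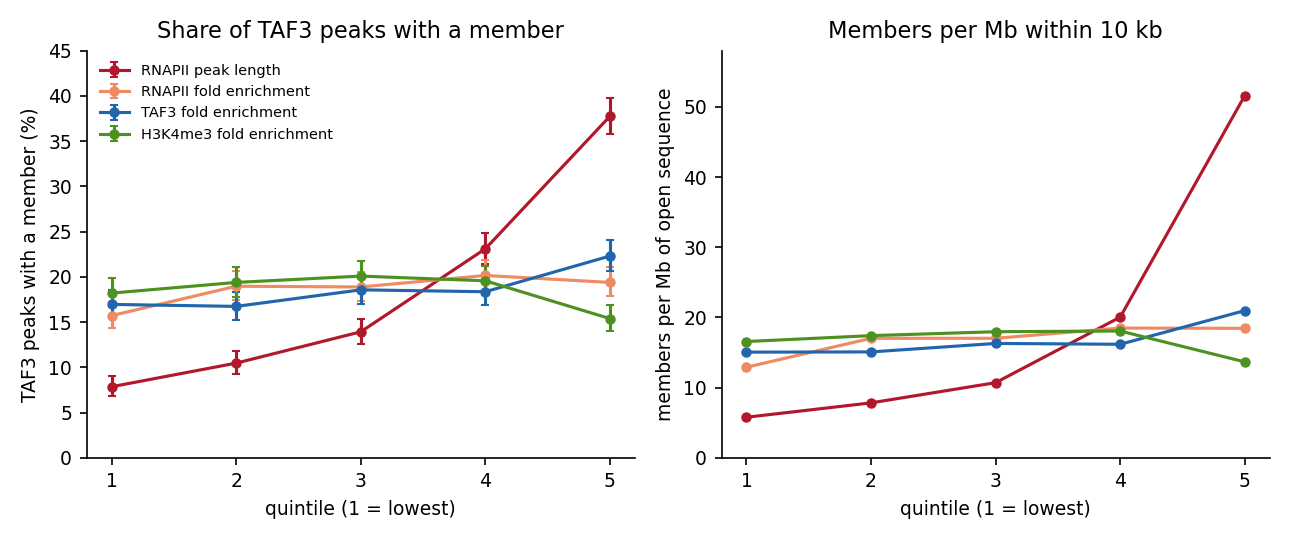
Left, the share of TAF3 peaks with at least 1 member, with Wilson 95% intervals, by quintile of 4 measures at the TAF3 peak; right, members per Mb of open sequence within 10 kb for the same quintiles. RNAPII peak length runs from 7.86% to 37.8% of TAF3 peaks, while the lines for the 3 fold enrichments stay between 15.4% and 22.3%.

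Members were more frequent where TAF3 peaks lie close together. The next TAF3 peak here means the nearest other one, on either side. The median gap to it was 22184 bp for TAF3 peaks with a member and 44208 bp for those without. By quintile of that gap, from closest to widest, 21.6%, 29.6%, 22.0%, 13.4% and 6.25% of TAF3 peaks had a member, the widest quintile starting at 111736 bp. Per Mb of open sequence the 5 quintiles had 34.7, 28.9, 17.7, 9.92 and 4.26 members. The relation with RNAPII peak length was present at each spacing. Where the next TAF3 peak was over 100 kb away, 26.9% of TAF3 peaks in the highest quintile of RNAPII length had a member (interval 21.5 to 33.0%) and 3.45% of those in the lowest (2.33 to 5.08%). At 20 to 100 kb the shares were 48.3% and 9.30%, and under 20 kb they were 34.2% and 10.6%.

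Chromosomes differed in the same sense. Members were found on 23 chromosomes, and the share of TAF3 peaks with one was highest on chromosome 19, at 34.4% of 825 (interval 31.3 to 37.7%), which also held the most members, 452. Chromosomes 22, 16, 20 and 17 followed at 26.7%, 25.5%, 24.8% and 24.8%. The lowest shares among chromosomes with members were 9.01% on X (6.42 to 12.5%), 9.80% on 13 and 10.9% on 4, and the single TAF3 peak on Y had none. The median gap from a TAF3 peak to the nearest other TAF3 peak was 16369 bp on chromosome 19, 67536 bp on X and 74014 bp on 4. Across the 23 chromosomes the rank correlation of the share with that gap was -0.92. With the median length of the RNAPII peaks over TAF3 peaks it was 0.786, and these relations were not separated across chromosomes. Members on X and 13 had higher median fold enrichment than those on 19, at 20.04, 20.7 and 15.35, from 47, 23 and 452 members.

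**Figure D4:**
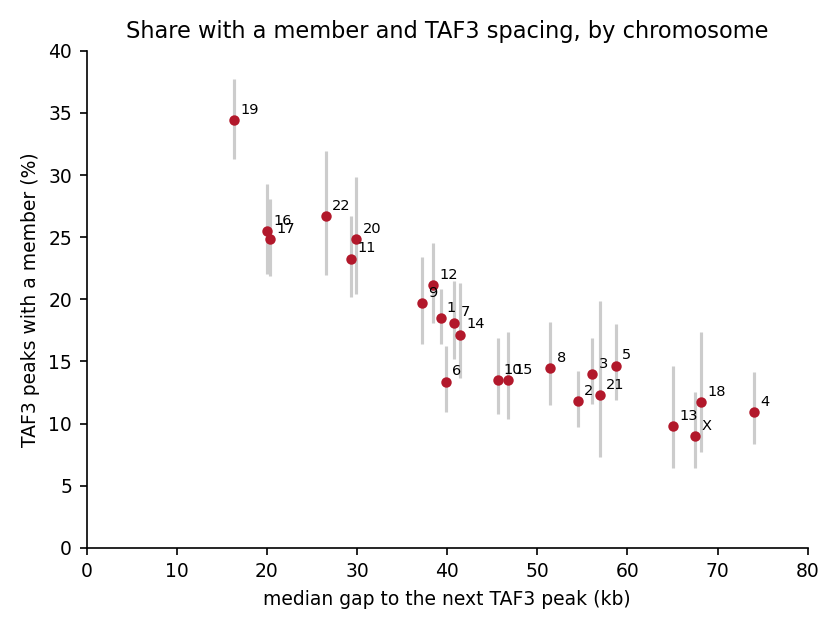
Share of TAF3 peaks with a member, with Wilson 95% intervals in grey, against the median gap from a TAF3 peak to the nearest other TAF3 peak, 1 point for each of 23 chromosomes. Chromosome 19 stands at the upper left with 34.4% and chromosomes X, 13 and 4 at the lower right with 9.01% to 10.9%.

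Other RNAPII peaks were close by. Another filtered RNAPII peak lay within 1 kb of 57.1% of members (interval 55.3 to 58.8%), compared with 43.8% of RNAPII-only peaks 10 to 50 kb out and 32.8% of those over 50 kb out. Over all filtered RNAPII peaks the share was 28.7%, or 22.5% with neighbours over filtered TAF3 peaks left out. The difference from the 10 to 50 kb class was 13.3 points (10.9 to 15.7). The difference was not seen once RNAPII peaks over filtered TAF3 peaks were left out of the neighbours, when the shares were 43.4% and 43.7% (difference -0.34, interval -2.72 to 2.04). Against the class over 50 kb out, where the share stayed at 32.8%, the difference was then 10.6 points (7.72 to 13.4). The median gap to the nearest other filtered RNAPII peak, promoters included, was 620 bp in members, 1588 bp at 10 to 50 kb and 5562 bp over 50 kb. To the nearest RNAPII peak of the full list it was 146, 186 and 379 bp in the same classes, so the contrast was much smaller without the authors' filter.

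By filtered peaks, most members lay at some distance from the promoter's own RNAPII peak rather than as its immediate edge. The median gap between them was 3568 bp, with quartiles of 1322 and 6258 bp, and it was under 1 kb for 631 members (20.03%, interval 18.7 to 21.5%). For 2224 (70.6%) no filtered RNAPII peak lay in between. Peaks below the filter were not counted here, and the nearest other RNAPII peak of the full list lay a median of 146 bp from a member. The strength of a member had little relation to that of its promoter. Across members the rank correlation of fold enrichment was 0.089 with the promoter's RNAPII peak (3150 members), 0.090 with the TAF3 peak (3158) and 0.071 with the H3K4me3 peak (3092). These points share promoters where a TAF3 peak has several members, and all fold enrichments share the input. In the 597 cases with at least 2 members on the same side of a TAF3 peak, the nearer was the stronger in 293 (49.1%, interval 45.1 to 53.1%).

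The members were not placed evenly around the promoter. By coordinate alone, 1666 of the 3158 lay below their TAF3 peak (52.8%, interval 51.0 to 54.5%). The files give no strand, so sides were read from the shape of the promoter peaks. Members lay on the side to which the H3K4me3 peak reached farther from the TAF3 summit in 57.9% of 3091 cases (interval 56.1 to 59.6%), and on the side to which the promoter's RNAPII peak reached farther in 55.9% of 3145 (54.2 to 57.6%). The share did not grow steadily with the asymmetry of the RNAPII peak. It was 53.6% where the longer reach was under 2 times the shorter, 62.4% at 2 to 4 times and 51.7% (46.9 to 56.6%) at 4 times or more. With 1 member counted per TAF3 peak, the nearest, the share on the side of the longer RNAPII reach was 55.8% of 2176 (53.7 to 57.9%). They lay on the side of the TAF3 summit that held the promoter's RNAPII summit in 44.0% of 3123 (42.2 to 45.7%), which is the smaller part.

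The same order held per Mb of open sequence. There were 19.7 members per Mb on the side of the longer H3K4me3 reach and 13.8 on the other side. For RNAPII reach the values were 19.5 and 14.3, although that side had less open sequence, 90.3 against 97.1 Mb. For the side holding the RNAPII summit they were 15.0 and 18.6. Members on the side of the longer RNAPII reach had a median of 118 tags and 1888 bp, compared with 107 tags and 1716 bp on the other side.

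The TAF3 peaks with most members show how such strings were laid out. The peak at chr19:39137857-39139923, with TAF3 at 105-fold, H3K4me3 at 202-fold and an RNAPII peak of 211-fold over 4851 bp, had 7 members. Of these, 5 lay at lower coordinates, between 4403 and 9360 bp away, with 11.1- to 27.3-fold enrichment and 44 to 116 tags. The other two lay at higher coordinates, at 2745 bp (12.6-fold) and 8175 bp (8.76-fold).

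The peak at chr12:133286538-133288321 had TAF3 at 65.9-fold and 6 members, 3 on each side. On the lower side enrichment was 10.5- to 16.3-fold and on the upper side 14.6- to 24.0-fold, with the most tags, 229, at chr12:133295167-133296950. The peak at chr19:45312295-45312991 was narrow, with TAF3 at 45.9-fold from 95 tags, and had 6 members of 9.92- to 20.3-fold, 4 of them at lower coordinates. None of these 19 members exceeded 27.3-fold, against promoter RNAPII peaks of 147- to 228-fold.

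**Figure D5:**
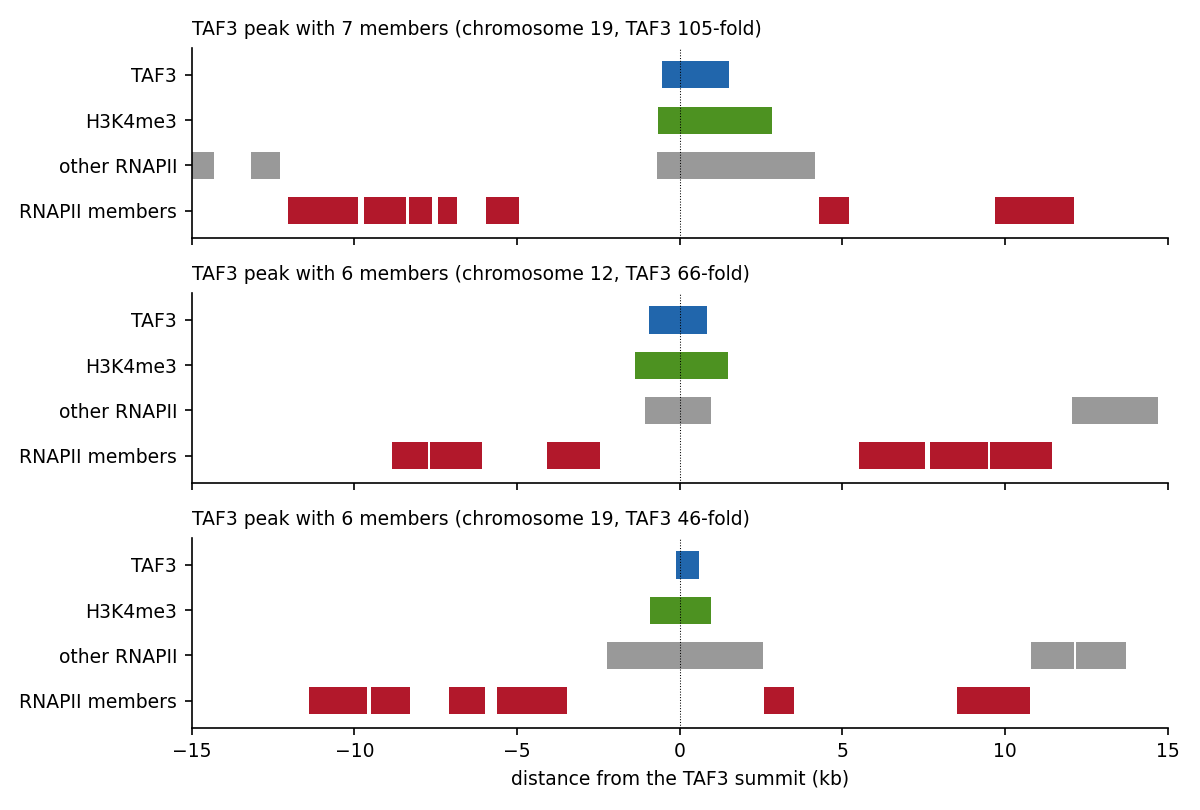
Filtered peaks within 15 kb of the summits of the 3 TAF3 peaks with most members, as distance from the TAF3 summit in kb; members in red, other RNAPII peaks in grey, H3K4me3 in green and TAF3 in blue. Members lie on both sides of each TAF3 peak, 5 and 2, 3 and 3, and 4 and 2 from lower to higher coordinates.

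Members beside the strongest TAF3 peaks that had any ran from 8.31- to 120-fold, and most lay above the median of all members, 15.3-fold. The TAF3 peak at chr10:70090897-70093181, at 224-fold, had 1 member of 18.7-fold at 6794 bp. The one at chr19:2268865-2271787, at 186-fold, had 3 on its upper side, of 21.0-, 120- and 20.5-fold at 494, 1535 and 3080 bp. The one at chr19:1437874-1440102, at 170-fold, had 4 on its lower side, of 8.31- to 17.9-fold. The one at chr2:198363209-198366185, at 158-fold, had 3, of 18.7- to 22.8-fold. The fifth, at chr14:69257738-69263611 and 155-fold, had the single 81.6-fold member with most tags.

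The 13 members that exceeded the RNAPII peak over their TAF3 peak stood beside TAF3 peaks of low RNAPII enrichment, which the comparison itself favours. Their own enrichment ran from 35.3- to 123-fold, and that of the RNAPII peak over the TAF3 peak from 20.1- to 64.0-fold. TAF3 there ran from 9.18- to 37.4-fold, and at 4 of the 13 the TAF3 peak carried no filtered H3K4me3 peak, against 66 of all 3158 members. Besides the regions on chromosomes 6, 7, 10 and 16 named above, examples are chr17:39956632-39958679 at 59.9-fold and chr19:48986456-48989396 at 55.9-fold. The RNAPII peaks over their TAF3 peaks reached 32.4-fold and 36.1-fold. This chromosome 17 TAF3 peak, like that beside the chromosome 10 region, is among those without a filtered H3K4me3 peak. Of the 13, 4 overlapped a weak H3K4me3 peak, against 110 of all 3158 members (3.48%). The 13 were chosen for exceeding another peak in RNAPII enrichment. Members with weak H3K4me3 had a median of 22.1-fold against 15.2-fold for the others, so nothing is read from this count.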

How the data were processed

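Members, lists and comparisons were chosen with earlier results of these data known. Per the submitters' processing notes, CASAVA 1.8.2, MACS 1.4.2 and build hg19 were used. How reads were aligned is not given in the sources used here. The authors, per the file headers, called peaks for each ChIP library against the same input, with 1 tag kept per position and a p cutoff of 1e-05. The deposited values per peak are tag counts, fold enrichment (a ratio to expected input), a score (minus 10 times log10 of p) and FDR in percent. Gene positions and sequence are not analysed here, because the reference tables at hand are on another build. TAF3 peaks are therefore called promoters without reference to gene starts.

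Overlap meant at least 1 shared bp, and gaps are the bases between peak edges. Each TAF3 peak was paired with its overlapping peak of highest fold enrichment. Open sequence was counted on a 10 bp grid. Shares have Wilson and differences Newcombe intervals, and medians have order-statistic intervals. Scripts ran in Python 3.11.15 with pandas 2.3.3, numpy 2.4.6, matplotlib 3.10.9 and scipy 1.17.1. The overlap, distance and interval code was tested on simulated data, and bedtools 2.31.1 gave the same number of members, 3158 (9 of 9 checks passed in all). Named regions are the 10 members of highest fold enrichment, those with most tags, the longest, those at the limits of the rule, and those beside the TAF3 peaks with most members or highest TAF3 enrichment. The group of 13 with higher fold enrichment than the RNAPII peak over their TAF3 peak was chosen after its values were seen.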

Additional observations from a re-analysis of the deposited data

How the results depend on the processing

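Of 63 alternative values for 8 results, 42 lay inside the range set for the reported value and 21 did not. The range was the reported value's 95% interval, with a factor of 1.5 for counts. For the ratio of median fold it was made by dividing opposite ends of both median intervals, which is wider than a 95% interval. With a distance limit of 5 kb there were 1778 members, 21.3% of RNAPII-only peaks, with a median gap of 2558 bp, at 12.2% of TAF3 peaks. With 20 kb these were 4812, 57.7%, 7064 bp and 24.7%. These moves follow from the limit itself. With no length limit the median fold was 15.8 and 20.4% of TAF3 peaks had a member. When members could touch TAF3 peaks outside the filter, the share near TAF3 was 34.98%, the median fold 16.4, the TAF3 share 21.2%, weak H3K4me3 8.70% and the rank correlation with the promoter's RNAPII 0.020. With RNAPII fold above 10 the median fold was 16.8, the TAF3 share 16.5% and that correlation 0.052. With 1 kb clear of TAF3 and H3K4me3 the share near TAF3 was 34.3%, the median gap 5072 bp and the TAF3 share 16.2%. Apart from the limits on distance, fold and touching, the cause of these moves was not tested. Leaving out chromosomes X and Y moved none of the 8 results. The ratio of median fold between members and peaks farther out, 0.993 as reported, stayed between 0.968 and 1.01. With H3K4me3 peaks of the full list barred, the weak H3K4me3 share is 0 by construction and was not computed. No replicate could be left out, since each antibody has 1 library. No paired analysis was possible because no group has a second library.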

Other observations

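RNAPII peaks outside the authors' filter also flanked TAF3. There were 10896 peaks of the full RNAPII list that met the same rule on length, overlap and distance but not the filter, with a median of 8.90-fold enrichment, 26 tags and 621 bp. So 22.5% of the RNAPII peaks that met this rule passed the filter, against 40.7% of all peaks of the full RNAPII list. These shares are not alike. The rule barred wide peaks and those touching TAF3 or filtered H3K4me3, while the 40.7% counts them too. Nothing about nearness to TAF3 is read from that contrast. The lowest score among members was 240.5, and the highest among the peaks left out, apart from 1 with a score of 3225, was 298.8.

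RNAPII-only peaks of 5000 bp or more lay beside TAF3 as well. There were 354 under 10 kb from TAF3, 50.0% of the 708 such wide peaks (interval 46.3 to 53.7%), compared with 37.9% of those under 5000 bp. Gaps run between edges, so a longer peak reaches nearer to TAF3 from the same centre, which favours the wide peaks in this comparison. The 354 had a median of 23.3-fold enrichment, 704 tags and 6672 bp, and the longest spanned 20656 bp.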
